A study of Homo sapiens with 6 samples.

Results

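Respiratory complex I is described here through the nuclear genes whose symbol starts with NDUFA, NDUFB, NDUFC, NDUFS, NDUFV or NDUFAF followed by a number. These are the accessory and core subunits and a family of assembly factors, and pseudogenes were left out. The RefSeq gene table holds 44 coding genes of that form, and 38 of them had a probe with 1 gene name, out of 18757 named genes on the array. NDUFS6, NDUFA8, NDUFB11, NDUFS3 and NDUFA9 were found only on probes given to several genes, and NDUFB7 had no named probe. These 6 genes have no value in the main counts and medians, and 4 of the shared probes entered an alternative of processing. The cells were HSC3, a human oral squamous cell carcinoma line. They carried an siRNA, a short RNA that lowers a chosen transcript, and the labels name MIA, MIA2, TANGO, MATE2 and LEMD1 as its targets, against a control. Each of the 6 conditions was measured on 1 single-channel CodeLink Human Whole Genome Bioarray. The series design describes the control cells as given a control siRNA and the array methods describe untreated cells. The sources used here do not state the number of cultures behind an array.

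Complex I, the NADH:ubiquinone oxidoreductase, is the entry point of electrons from NADH into the mitochondrial respiratory chain. Its peripheral arm holds an N module that oxidizes NADH and a Q module that passes the electrons to ubiquinone, and its membrane arm pumps protons. The enzyme is built from separate modules with the help of assembly factors, and some subunits of the membrane arm are encoded by mitochondrial DNA, for which the array had no named probe. In squamous carcinoma cells, as in other proliferating cells, complex I supports ATP production and the regeneration of NAD+.

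Signals are scanner intensities above local background, quantile normalized over the 6 arrays, and a ratio is a siRNA array over the control array on the log2 scale. A gene was counted in a comparison when its brightest probe carried the good quality flag on both arrays, and it was called changed when it differed at least 2-fold, a log2 ratio of 1 or more either way. Since each condition has 1 array, no ratio has a replicate check, an error or a test, and all 5 comparisons share the control array. The number of arrays limits the precision of every value.

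The arrays carried between 27545 and 30628 good gene probes, and 36 of the 38 complex I genes were good on all 6. Over 11436 genes good on every array, the MIA siRNA array correlated with the control array at r = 0.98 and the MIA2 siRNA array with the LEMD1 siRNA array at 0.969, across genes that are no replicates. The array labelled TANGO siRNA and the one labelled MATE2 siRNA stood apart, with r of at most 0.892 with any array. The targets did not all follow the labels. The probe of LEMD1 was not above background on 2 arrays, the one labelled LEMD1 siRNA, at least 10.1-fold under the control, and the one labelled MIA2 siRNA, at least 6.57-fold under it. The MIA2 probe read 169 on the array labelled MIA2 siRNA against 155 on the control array, SLC47A2, which has MATE2 among its names, read 59.0 on the array labelled TANGO siRNA and 79.6 on the array labelled MATE2 siRNA against 1510 on the control array, MIA was near background on all 6 arrays, and MIA3, which has TANGO among its names, had no named probe. Conditions are therefore named as the arrays labelled with each siRNA, and MIA2, for example, stands for the array labelled MIA2 siRNA. All 6 named squamous epithelial markers, KRT5, KRT14, KRT17, TP63, EPCAM and SFN, were good on every array. Of the named markers of other cell types, 3 of 5 of fibroblasts (COL1A1, PDGFRB, LUM), 1 of 4 of endothelium (PECAM1, 338 to 528) and 1 of 5 of leukocytes (CD79A, 677 to 1123) were also good on every array, and COL3A1, CDH5, KDR, PTPRC and LYZ were above background on none. In such bulk samples, fewer cells of a type and less RNA per cell cannot be told apart.

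Complex I transcripts as a group sat above the control on the MIA2 and MATE2 arrays, less so on the LEMD1 array, and close to it on the MIA and TANGO arrays. On MIA2, the median log2 ratio of 36 genes was 0.67, with an interquartile range of 0.36 to 0.92, against -0.01 over 12451 named genes. There 7 genes were at least 2-fold higher and 0 lower, where 3.29% of all genes were called higher and 5.21% lower. On MATE2, the median of 37 genes was 0.53, with 10 genes higher and 0 lower, against a median of -0.03 over all genes, 5.95% called higher and 11.7% called lower. On LEMD1, the median of 37 genes was 0.26 against -0.02 over all genes, with 2 genes higher and 1 lower beside 2.03% and 3.98% of all genes. The 36 genes measured on TANGO had a median of 0.06 against -0.03 over all genes, and the 2 genes higher and 2 lower stand beside 5.57% and 9.09% of all genes. The 36 genes measured on MIA had a median of 0.02 against -0.04, and 0 were called in either direction, beside 0.391% of all genes called higher and 0.258% called lower.

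Most genes of the set were above the control on the MIA2 and MATE2 arrays. Ratios were above 0 for 32 of 36 genes on MIA2, 30 of 37 on MATE2, 27 of 37 on LEMD1, 19 of 36 on TANGO and 18 of 36 on MIA, where 49.3%, 47.8%, 47.4%, 48.0% and 43.3% of all named genes were above 0. Of the 36 genes good on all arrays, 13 (36.1%) had their highest signal on MIA2, 4 (11.1%) on TANGO, 18 (50%) on MATE2, 1 on LEMD1 and 0 on MIA or control, where 17.2%, 24.3%, 19.6%, 12.5%, 8.2% and 18.2% of 11436 named genes were highest. The lowest signal fell on MIA2 and MATE2 for 2 genes each (5.6%), where 15% and 24.3% of the named genes were lowest. It fell on TANGO for 11 (30.6%), where 23.1% were, and on the shared control array for 9 (25%), where 14.8% were. MIA and LEMD1 were lowest for 6 each (16.7%), where 9.8% and 13.2% of the named genes were. Among all named genes, the brighter ones alone, with a mean signal above the median, had a median log2 ratio of -0.04 on MIA2 and -0.06 on MATE2. The summed signal of the 6 squamous markers moved with the siRNA arrays too, at 36155 on MIA2 and 36407 on LEMD1, 12377 on MATE2, 11526 on TANGO and 15155 on MIA, against 13010 on control, and its part in the complex I result was not tested. The bacterial control spots had median raw intensities of 490.1 on MIA2, 535 on MATE2, 213 on LEMD1, 370.5 on TANGO and 252.5 on MIA, against 481 on control.

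**Figure D1:**
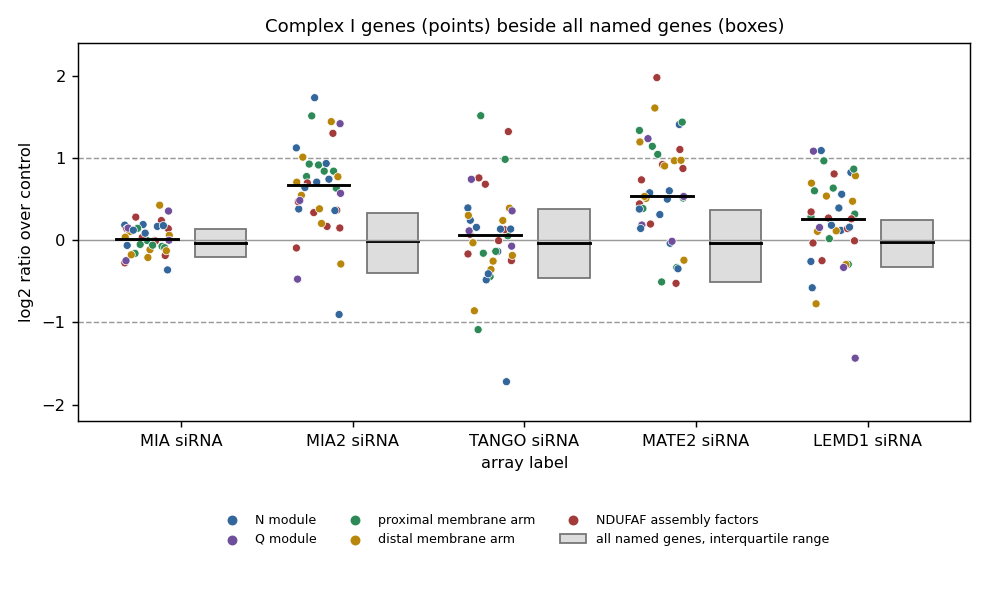
Log2 ratio over control (vertical axis) of each complex I gene with good flags on both arrays (points, coloured by module; short black line, median) on the 5 siRNA arrays, beside the interquartile range of all named genes (grey box; black line, median). Dashed lines mark 2-fold. The complex I medians of 0.67 on MIA2 and 0.53 on MATE2 lie above the grey boxes, whereas those of MIA and TANGO, 0.02 and 0.06, lie inside them.

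In all, 18 of the 37 genes with a counted ratio were at least 2-fold changed on some siRNA array, 6 of them on more than 1. This gives 24 calls, 21 higher and 3 lower. Of 13289 named genes with a ratio, 29.0% were changed on some array and 11.4% on more than 1, and 36.3% of their calls were higher. The promoters of 5 of the 18 are shown because these genes hold the largest counted ratios: NDUFA2 on MIA2, NDUFAF4 on MATE2, NDUFV3 downward on TANGO, NDUFS7 downward on LEMD1, and NDUFA12 as a gene past 2-fold on both MIA2 and MATE2. Each runs 5′ to 3′ on the strand of the gene over 300 bases, 250 before and 50 after the RefSeq start site (GRCh38.p14), with capitals for motif matches on either strand.
NDUFA2 (chr5:140647581-140647880, minus strand): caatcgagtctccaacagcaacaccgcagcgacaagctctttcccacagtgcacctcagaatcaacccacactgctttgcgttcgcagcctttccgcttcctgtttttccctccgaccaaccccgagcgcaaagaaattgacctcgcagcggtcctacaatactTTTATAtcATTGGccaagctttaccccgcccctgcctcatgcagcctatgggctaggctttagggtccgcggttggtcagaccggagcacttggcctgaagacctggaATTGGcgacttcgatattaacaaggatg
NDUFA12 (chr12:95003648-95003947, minus strand): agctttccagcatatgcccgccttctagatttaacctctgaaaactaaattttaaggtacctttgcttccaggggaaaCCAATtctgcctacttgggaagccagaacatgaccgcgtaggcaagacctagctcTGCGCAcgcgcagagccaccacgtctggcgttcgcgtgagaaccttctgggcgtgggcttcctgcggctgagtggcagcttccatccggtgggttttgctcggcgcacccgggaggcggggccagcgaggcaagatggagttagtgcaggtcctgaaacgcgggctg
NDUFAF4 (chr6:96897842-96898141, minus strand): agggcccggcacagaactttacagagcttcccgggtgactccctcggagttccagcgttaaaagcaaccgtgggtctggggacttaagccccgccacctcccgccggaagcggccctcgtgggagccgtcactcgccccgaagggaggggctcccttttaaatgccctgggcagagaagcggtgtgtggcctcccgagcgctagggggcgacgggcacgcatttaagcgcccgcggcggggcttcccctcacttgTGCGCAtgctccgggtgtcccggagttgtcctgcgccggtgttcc
NDUFV3 (chr21:42893059-42893358, plus strand): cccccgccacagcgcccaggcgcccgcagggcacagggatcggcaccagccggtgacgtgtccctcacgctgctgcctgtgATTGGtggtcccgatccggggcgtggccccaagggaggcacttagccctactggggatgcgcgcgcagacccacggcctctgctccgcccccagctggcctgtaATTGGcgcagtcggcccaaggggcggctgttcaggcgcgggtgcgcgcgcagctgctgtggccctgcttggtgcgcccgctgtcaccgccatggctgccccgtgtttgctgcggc
NDUFS7 (chr19:1383657-1383956, plus strand): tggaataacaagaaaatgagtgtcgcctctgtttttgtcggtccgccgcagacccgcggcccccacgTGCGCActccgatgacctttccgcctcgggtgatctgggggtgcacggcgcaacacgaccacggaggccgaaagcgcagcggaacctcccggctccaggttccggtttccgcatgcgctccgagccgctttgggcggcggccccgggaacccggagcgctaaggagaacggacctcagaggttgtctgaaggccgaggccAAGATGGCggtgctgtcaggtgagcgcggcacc
The motifs searched were TGCGCA, the core of the site of NRF1, a regulator of respiratory chain genes, AAGATGGC of YY1, CCGGAAGT of the GABP factor, TATAAA of the TATA box and CCAAT, and none of them contains another. Among the 32 complex I genes with a promoter in the table, TGCGCA occurred in 8 (25%), against 10.8% of 15843 coding promoters, and AAGATGGC in 5 (15.6%), against 3.91%. CCGGAAGT occurred in 6.25% against 6.19%, TATAAA in 6.25% against 9.63% and CCAAT in 31.2% against 36.4%. The 8 genes with TGCGCA were NDUFA3, NDUFA6, NDUFA12, NDUFAF4, NDUFAF5, NDUFB4, NDUFB8 and NDUFS7. Their median log2 ratio on MATE2 was 0.94, against 0.50 for 23 genes without it, and on MIA2 it was 0.62, against 0.67 for 22 genes. On TANGO it was 0.345 against -0.106, on LEMD1 0.263 against 0.157 and on MIA 0.069 against 0.028. The 5 genes with AAGATGGC had medians of 0.511 on MATE2 and 0.74 on MIA2, against 0.654 and 0.639 without it. These differences were not tested. A match describes the letters of a window and says nothing of a factor bound there.

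In the N module, which takes electrons from NADH, 9 of 10 genes had values, and their median log2 ratio was 0.70 on MIA2, 0.38 on MATE2, 0.18 on LEMD1, 0.13 on TANGO and 0.12 on MIA. NDUFA2, an accessory subunit with a thioredoxin-like fold, had signals of 278 for MIA, 810.5 for MIA2, 175 for TANGO, 364 for MATE2 and 519 for LEMD1 siRNA, against 244 for control. Its log2 ratio was 1.73 on MIA2 and 1.09 on LEMD1, with the lowest signal on TANGO. NDUFA12, the accessory subunit that takes the place of the assembly factor NDUFAF2 late in assembly, read 892 for MIA, 1710 for MIA2, 1031 for TANGO, 2083 for MATE2 and 1390 for LEMD1 siRNA, against 786 for control. Its ratios passed 2-fold on MATE2 (1.41) and MIA2 (1.12) and were above 0 on all 5 arrays. The MIA2 call of NDUFA12 was lost against the median of the other arrays, at 0.73. NDUFV3, an accessory subunit bound near the flavin site, read 347 for MIA, 394 for MIA2, 93.1 for TANGO, 399 for MATE2 and 257 for LEMD1 siRNA, against 307 for control. TANGO alone stood low, at a log2 ratio of -1.72, and the other 4 siRNA arrays lay within -0.26 and 0.38 of the control.

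The core subunits of the N module did not move together. NDUFS1, which carries iron-sulfur clusters, had signals of 926 for MIA, 637 for MIA2, 1308 for TANGO, 1314 for MATE2 and 797 for LEMD1 siRNA, against 1192 for control. It was the lowest complex I gene on MIA2, at -0.91, and was also under the control on LEMD1 (-0.58) and MIA (-0.36). NDUFV1, the subunit that binds NADH and the flavin, read 339 for MIA, 485 for MIA2, 347 for TANGO, 386 for MATE2 and 353 for LEMD1 siRNA, against 312 for control. NDUFV2, its iron-sulfur partner, read 1411 for MIA, 2170 for MIA2, 1002 for TANGO, 1045 for MATE2 and 1484 for LEMD1 siRNA, against 1331 for control. Both were highest on MIA2, at 0.64 and 0.70, but NDUFV2 was under the control on TANGO (-0.41) and MATE2 (-0.35) where NDUFV1 was above it (0.15 and 0.31). The accessory subunit NDUFA7 read 649 for MIA, 1242 for MIA2, 592 for TANGO, 634 for MATE2 and 959 for LEMD1 siRNA, against 652 for control. NDUFS4, an accessory subunit mutated in Leigh syndrome, read 786 for MIA, 1171 for MIA2, 768 for TANGO, 989 for MATE2 and 918 for LEMD1 siRNA, against 701 for control. For NDUFA6, which docks the mitochondrial acyl carrier protein on the peripheral arm, the signals were 366 for MIA, 498 for MIA2, 453 for TANGO, 580.4 for MATE2 and 416 for LEMD1 siRNA, against 383 for control. These 3 stayed under 2-fold on every array, with the highest signal on MIA2 for NDUFA7 and NDUFS4 and on MATE2 for NDUFA6.

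**Figure D2:**
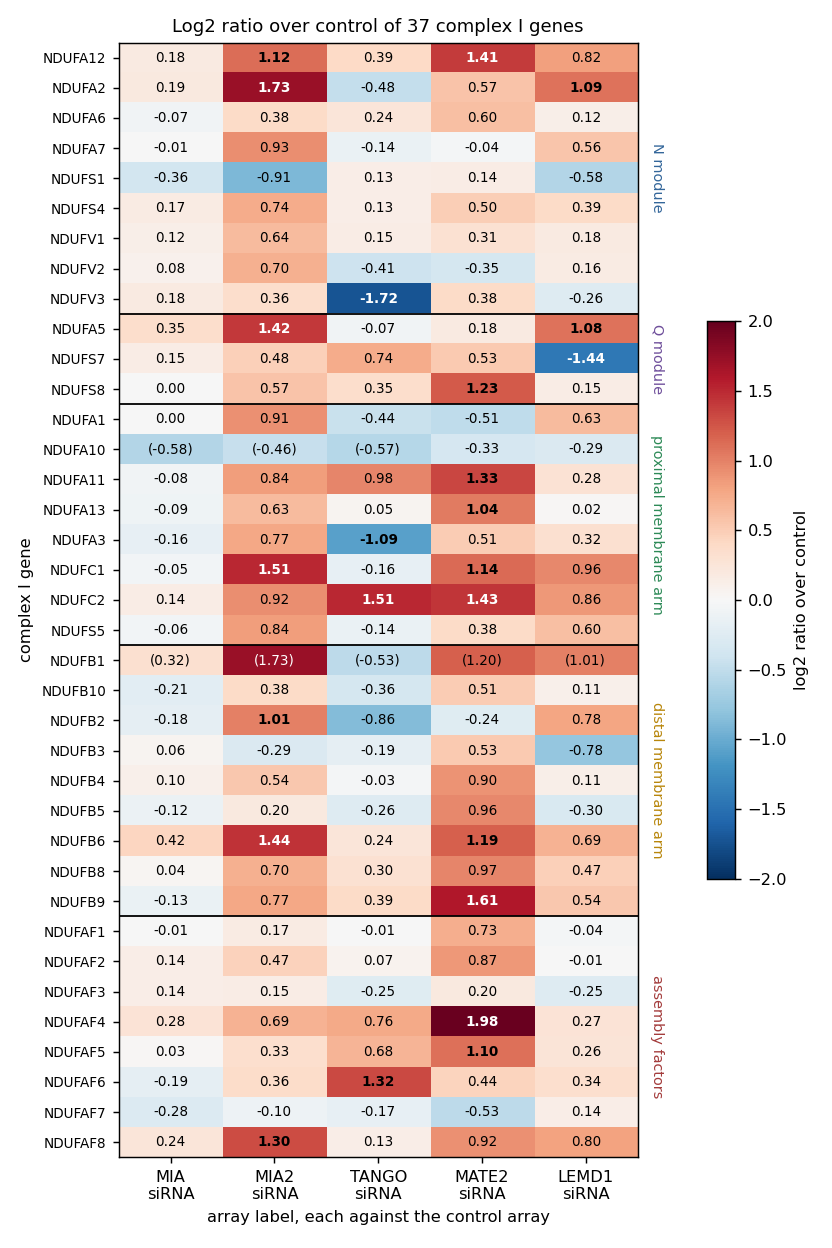
Log2 ratio over control of 37 complex I genes (rows, by module) on each siRNA array (columns), in colour from -2 to 2. Bold numbers are past 2-fold with good flags on both arrays, and numbers in brackets had a flag other than good on either array. The MIA2 and MATE2 columns hold most of the bold numbers, 7 and 10, and the MIA column holds 0.

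In the Q module, which reduces ubiquinone, 4 of 6 genes had values, and the 3 described here each followed a different pattern. NDUFA5, an accessory subunit, read 125 for MIA, 261 for MIA2, 93.1 for TANGO, 111 for MATE2 and 207 for LEMD1 siRNA, against 98 for control. It was past 2-fold on MIA2 (1.42) and LEMD1 (1.08), and near the control on TANGO and MATE2. The LEMD1 calls of NDUFA2 and NDUFA5, just past 2-fold, were lost in several alternatives of processing, down to 0.90 and 0.73. NDUFS7, the core subunit with the iron-sulfur cluster closest to ubiquinone, read 398 for MIA, 503 for MIA2, 601 for TANGO, 519.9 for MATE2 and 133 for LEMD1 siRNA, against 360 for control. Its LEMD1 signal was the lowest of the 6, at a log2 ratio of -1.44, whereas the other 4 siRNA arrays were above the control, up to 0.74 on TANGO. NDUFS8, a core subunit that hands electrons on towards NDUFS7, read 909 for MIA, 1349 for MIA2, 1164 for TANGO, 2140 for MATE2 and 1012 for LEMD1 siRNA, against 910.1 for control. Only its MATE2 signal was past 2-fold (1.23).

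NDUFS7 lies on chromosome 19 between PLPP2 and ZNF77. On LEMD1 the 56 other measured genes of that stretch had a median log2 ratio of -0.02, with an interquartile range of -0.39 to 0.20, against -1.44 for NDUFS7. The stretch had medians of 0.485 on TANGO (58 genes) and 0.608 on MATE2 (57 genes), beside 0.74 and 0.53 for NDUFS7. Its part in the NDUFS7 ratios was not tested. NDUFC2 lies on chromosome 11 between P2RY2 and DLG2, where the other genes had medians of 0.55 on TANGO (54 genes) and 0.37 on MATE2 (53 genes), against 1.51 and 1.43 for NDUFC2. Those neighbours were themselves above the medians of all genes on TANGO and MATE2, -0.03 each, and their part in the NDUFC2 ratio was not tested.

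The proximal membrane arm had the highest module median on MIA2, 0.84 over 7 counted genes, all above the control, and 0.78 over 8 genes on MATE2. NDUFA10, near background on MIA2 and not counted there, read under the control. NDUFC2, a small membrane subunit, read 1146 for MIA, 1970 for MIA2, 2961 for TANGO, 2806 for MATE2 and 1888 for LEMD1 siRNA, against 1038 for control. The TANGO and MATE2 signals were past 2-fold and all 5 siRNA arrays were above the control, with MIA nearest to it (0.14). Set against the median of the 5 other arrays, siRNA arrays included, both NDUFC2 calls were lost, at 0.65 on TANGO and 0.57 on MATE2. NDUFC1, a single-span membrane subunit, read 208 for MIA, 613 for MIA2, 193 for TANGO, 474 for MATE2 and 419.6 for LEMD1 siRNA, against 215 for control. Its ratio was past 2-fold on MIA2 (1.51) and MATE2 (1.14), just short of it on LEMD1 (0.96), and slightly under 0 on MIA and TANGO. With no background correction the MATE2 ratio was 0.94. NDUFA11, a membrane subunit at the interface with complex III in the respirasome, read 414 for MIA, 779.9 for MIA2, 862 for TANGO, 1099 for MATE2 and 530.5 for LEMD1 siRNA, against 436 for control. The MATE2 ratio was 1.33, where another good probe of the gene gave 0.72. On MIA2 that probe gave -0.002 against 0.84 for the brighter one.

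NDUFA13, also known as GRIM-19, read 456 for MIA, 754 for MIA2, 504 for TANGO, 1002 for MATE2 and 492 for LEMD1 siRNA, against 487 for control. MATE2 alone was past 2-fold (1.04), with LEMD1 and TANGO next to the control, and it was 0.96 with no background correction. NDUFA3, another small membrane subunit, read 525 for MIA, 1005 for MIA2, 276 for TANGO, 838 for MATE2 and 732 for LEMD1 siRNA, against 588 for control. TANGO gave its lowest signal (-1.09) and MIA2 its highest (0.77), on either side of the control, and with no background correction the TANGO ratio was -0.92. NDUFA1, an X-linked membrane subunit needed for assembly, read 2542 for MIA, 4797 for MIA2, 1874 for TANGO, 1791 for MATE2 and 3948 for LEMD1 siRNA, against 2548 for control. NDUFS5, a subunit on the intermembrane-space face, read 2777 for MIA, 5183 for MIA2, 2637 for TANGO, 3783 for MATE2 and 4393 for LEMD1 siRNA, against 2900 for control. Both were highest on MIA2 (0.91 and 0.84) and next on LEMD1 (0.63 and 0.60), all under 2-fold. NDUFA10, which resembles a nucleoside kinase, read 38.9 for MIA, 42.4 for MIA2, 39.4 for TANGO, 46.3 for MATE2 and 47.5 for LEMD1 siRNA, against 58.3 for control. These spots of its brighter probe were near background on MIA, MIA2 and TANGO. Another probe of NDUFA10, good on 4 arrays, read 63.4 on MIA, 47.7 on MIA2 and 48.4 on MATE2, against 64.0 on control. On TANGO and LEMD1, where it was not good, that probe read 27.4 and 18.6, log2 ratios of -1.225 and -1.787. The brighter probe gave -0.568 and -0.295 there, so the probes differed on TANGO and LEMD1 as well as on MIA.

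The distal membrane arm, the part with the outermost proton pumps, had a median of 0.93 on MATE2 over 8 genes, the highest of any module there, and 0.62 on MIA2. NDUFB6 read 369 for MIA, 746 for MIA2, 324 for TANGO, 628 for MATE2 and 444 for LEMD1 siRNA, against 275 for control. It was past 2-fold on MIA2 (1.44) and MATE2 (1.19), and the control array was the lowest of the 6. Against the median of the other arrays, or against MIA, the MATE2 ratio was 0.77. NDUFB9, which docks the acyl carrier protein on the membrane arm, read 807 for MIA, 1505 for MIA2, 1156 for TANGO, 2688 for MATE2 and 1280 for LEMD1 siRNA, against 883 for control. MATE2 stood highest, at 1.61, ahead of MIA2 (0.77). NDUFB2, a single-span subunit, read 1084 for MIA, 2469 for MIA2, 676 for TANGO, 1035 for MATE2 and 2110 for LEMD1 siRNA, against 1227 for control. It was past 2-fold on MIA2 (1.01), close behind on LEMD1 (0.78), and under the control on TANGO (-0.86). Its MIA2 call was lost under 4 alternatives of processing, among them the deposited normalized table, down to 0.97.

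The control spot of NDUFB1 was flagged as irregular in shape, so this accessory subunit entered no count. Its signals were 237 for MIA, 629 for MIA2, 131 for TANGO, 435 for MATE2 and 382 for LEMD1 siRNA, against 189 for control. MIA2 was highest and TANGO lowest, as for NDUFA2 and NDUFC1. NDUFB3, an accessory subunit mutated in complex I deficiency, read 170.5 for MIA, 134 for MIA2, 144 for TANGO, 237 for MATE2 and 95.7 for LEMD1 siRNA, against 164 for control. Unlike most of the set, it was under the control on LEMD1 (-0.78) and MIA2 (-0.29), and on MATE2 it was above it (0.53), at the median of the set. NDUFB5 read 755 for MIA, 942 for MIA2, 686 for TANGO, 1598 for MATE2 and 666 for LEMD1 siRNA, against 819 for control, with only MATE2 (0.96) near 2-fold. NDUFB8, whose protein is used as a gauge of assembled complex I, read 1436 for MIA, 2283 for MIA2, 1726 for TANGO, 2746 for MATE2 and 1944 for LEMD1 siRNA, against 1402 for control. It was above the control on all 5 arrays and came close to 2-fold on MATE2 (0.97). NDUFB4 read 2801 for MIA, 3801 for MIA2, 2548 for TANGO, 4867 for MATE2 and 2818 for LEMD1 siRNA, against 2607 for control. NDUFB10, on the intermembrane-space face, read 1670 for MIA, 2518 for MIA2, 1510 for TANGO, 2750 for MATE2 and 2083 for LEMD1 siRNA, against 1935 for control. Both were highest on MATE2 (0.90 and 0.51) and then on MIA2 (0.54 and 0.38).

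**Figure D3:**
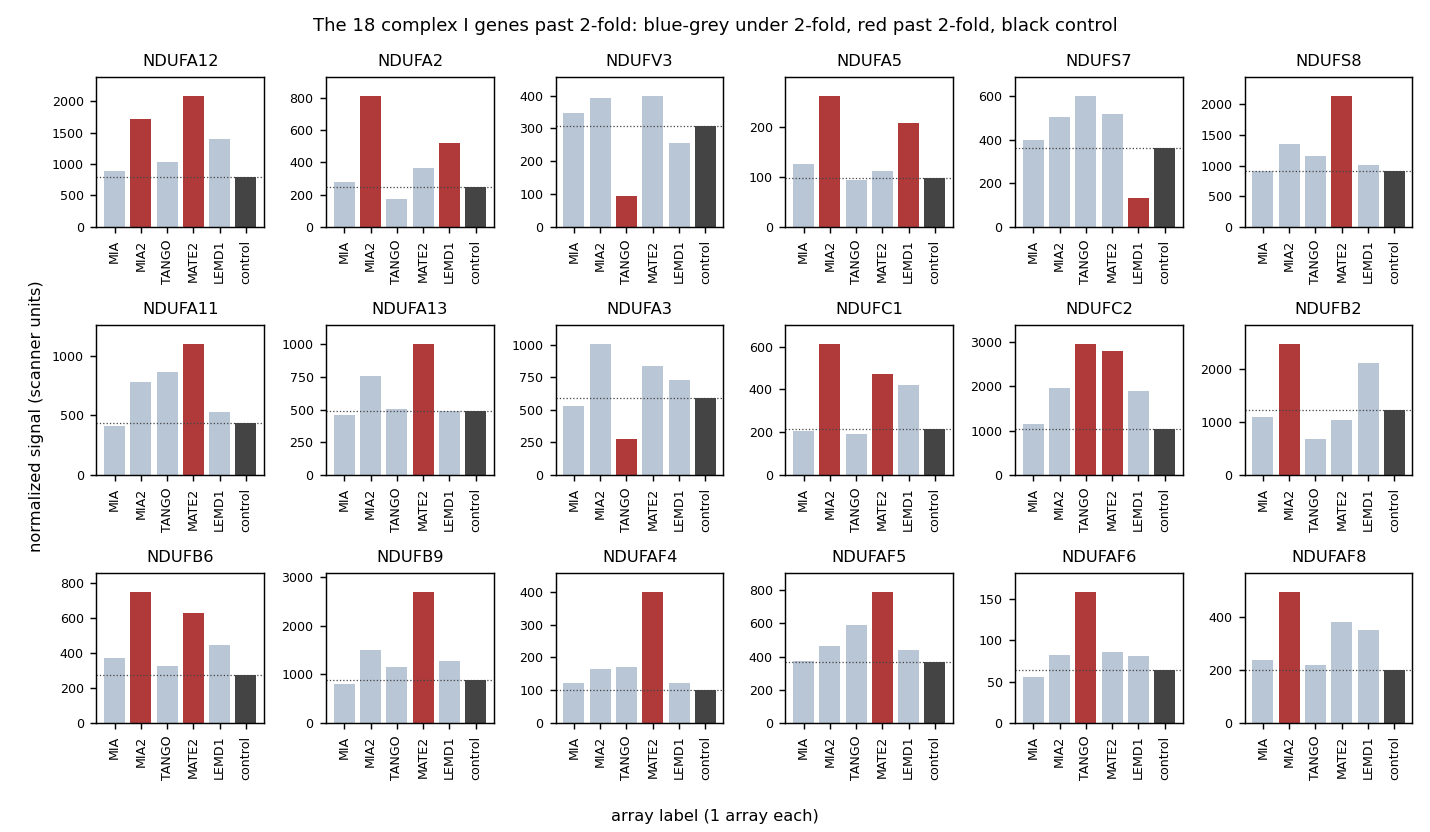
Normalized signal (vertical axis, scanner units, from 0) of the 18 complex I genes past 2-fold on at least 1 array, with 1 bar for each of the 6 arrays and a dotted line at the control. Red bars are past 2-fold. NDUFC1 and NDUFB6 stand high on both MIA2 and MATE2, NDUFA2 and NDUFA5 on MIA2 and LEMD1, NDUFC2 on TANGO and MATE2, and NDUFS7 is low on LEMD1 and NDUFV3 on TANGO.

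The 8 NDUFAF assembly factors had a median of 0.80 on MATE2 and 0.35 on MIA2. NDUFAF4, which works with NDUFAF3 in the assembly of the Q module, read 123 for MIA, 164 for MIA2, 172 for TANGO, 399 for MATE2 and 122 for LEMD1 siRNA, against 102 for control. MATE2 gave the highest ratio of the whole set, 1.98, with TANGO (0.76) and MIA2 (0.69) next. NDUFAF3, its partner, read 1270 for MIA, 1278 for MIA2, 971 for TANGO, 1321 for MATE2 and 970 for LEMD1 siRNA, against 1155 for control. It had the smallest range of the 38 genes, 1.36-fold from the lowest to the highest array, so the partners differed in their spread over these arrays. NDUFAF5, which hydroxylates an arginine of NDUFS7, read 376 for MIA, 464 for MIA2, 589 for TANGO, 789 for MATE2 and 439.7 for LEMD1 siRNA, against 368 for control. NDUFAF8, which stabilizes NDUFAF5, read 238 for MIA, 496 for MIA2, 220.2 for TANGO, 382 for MATE2 and 352 for LEMD1 siRNA, against 202 for control. NDUFAF5 was past 2-fold on MATE2 alone (1.10) and NDUFAF8 on MIA2 alone (1.30), where NDUFAF5 was at 0.33. The MATE2 ratio of NDUFAF5 was 0.84 when the 5 other arrays gave the comparator.

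NDUFAF6, which is needed early in assembly, read 55.8 for MIA, 81.8 for MIA2, 159 for TANGO, 86.2 for MATE2 and 80.6 for LEMD1 siRNA, against 63.6 for control. It was past 2-fold on TANGO alone (1.32), and at these low signals an added 50 brought that ratio under 2-fold, to 0.88. NDUFAF2, the late factor related to NDUFA12, read 417 for MIA, 523 for MIA2, 398 for TANGO, 692 for MATE2 and 376 for LEMD1 siRNA, against 379 for control. NDUFAF1, a factor of the membrane arm intermediate, read 489 for MIA, 553 for MIA2, 490.3 for TANGO, 818 for MATE2 and 480.3 for LEMD1 siRNA, against 492 for control. Both were highest on MATE2, at 0.87 and 0.73, and under 2-fold on every array. NDUFAF7, a methyltransferase of the mitochondrial matrix, read 259 for MIA, 294 for MIA2, 279 for TANGO, 218 for MATE2 and 346 for LEMD1 siRNA, against 314 for control. It was the lowest complex I gene on MATE2 (-0.53) and the only one highest on LEMD1 (0.14).

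A split of the subunits into the core ones that carry out catalysis, which have bacterial counterparts, and the accessory ones was made after the values were seen. On MIA2, 21 of 22 counted accessory subunits were above the control, with a median of 0.80, 6 past 2-fold and NDUFB3 as the exception. Their flags kept NDUFA10, which read 42.4 against 58.3 on control, and NDUFB1, which read 629 against 189, out of that count. Of all named genes, 49.3% were above 0 on MIA2 and 3.29% were called higher. The 6 measured core subunits had a median of 0.53 there, with NDUFS1 among those under the control and 0 past 2-fold. On LEMD1 the accessory median was 0.47 over 23 genes, with 19 above the control, and the core median was -0.09, with 3 of 6 above. Over all named genes, 47.4% were above 0 on LEMD1. On MATE2 the medians were 0.57 for 23 accessory subunits and 0.23 for 6 core subunits. There 7 accessory subunits and 1 core subunit, NDUFS8, were past 2-fold, beside 5.95% of all genes called higher. The order was the other way on TANGO, -0.10 for 22 accessory and 0.14 for 6 core subunits, and on MIA, -0.004 and 0.04. With 6 core subunits and no replicate, these differences were not tested.

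The list of other assembly genes, outside the NDUFAF family, had 11 measured genes, among them NDUFAB1, the mitochondrial acyl carrier protein. Their medians were 0.15 on MIA2, 0.10 on MATE2, -0.06 on LEMD1, -0.03 on TANGO and 0.08 on MIA. NDUFAB1 is docked on complex I by NDUFA6 and NDUFB9 and is thus part of the enzyme. Its symbol lies outside the rule, so it entered no accessory subunit count. NDUFAB1 was past 2-fold on MATE2 (1.07) and MIA2 (1.02). DMAC1, a factor of the distal arm, was past 2-fold on MIA2 (1.39) and LEMD1 (1.22), ACAD9, of the membrane arm intermediate, was low on MATE2 (-1.47), and OXA1L, the inner membrane insertase, was low on TANGO (-1.04). COXFA4, the former NDUFA4, which is now placed with complex IV and counts as no member, was at 1.61 on MIA2 and 1.10 on LEMD1. The genes of iron-sulfur cluster assembly, which supplies the N and Q modules, had medians of -0.08 on MIA2 and 0.00 on MATE2 over 15 genes. Of these, BOLA3, a late-acting factor, was high on LEMD1 (2.91), MIA2 (2.88) and TANGO (1.43). NFU1, a carrier of clusters, was low on MATE2 (-1.27) and TANGO (-1.07).

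The other respiratory complexes also sat above the control on MIA2, MATE2 and LEMD1. Over 62 genes of complexes II to V the median was 0.51 on MIA2, 0.46 on MATE2 and 0.32 on LEMD1, over 60 genes it was -0.03 on TANGO, and over 61 genes 0.05 on MIA. Counts past 2-fold were 8 higher and 0 lower on each of MIA2 and MATE2, beside the 3.29% higher and 5.21% lower of all genes on MIA2 and the 5.95% and 11.7% on MATE2. On MIA2 the medians were 0.69 for 18 genes of ATP synthase, 0.57 for complex II, 0.47 for complex III and 0.35 for complex IV, beside 0.67 for complex I. On MATE2 they were 0.72 for ATP synthase, 0.42 for complex II, 0.47 for complex III and 0.40 for complex IV, beside 0.53 for complex I. ATP5MF (2.07), ATP5ME (1.33) and ATP5IF1 (1.21) of ATP synthase, COX6C (1.62), COX11 (1.23), COX16 (1.21) and COX8A (1.003) of complex IV and UQCR10 (1.12) of complex III were past 2-fold on MIA2. On MATE2 these were SDHAF3 (2.43) of complex II, COA4 (2.22), COX19 (1.66) and COX8A (1.14) of complex IV, ATP5MK (1.65) and ATP5F1D (1.11) of ATP synthase, and CYC1 (1.52) and UQCC2 (1.17) of complex III. TANGO had SDHAF3 (1.86), COA4 (1.53), COX10 (1.49) and ATP5MG (1.27) past 2-fold, and LEMD1 had ATP5MF (1.62), UQCR10 (1.11) and COX11 (1.08).

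**Figure D4:**
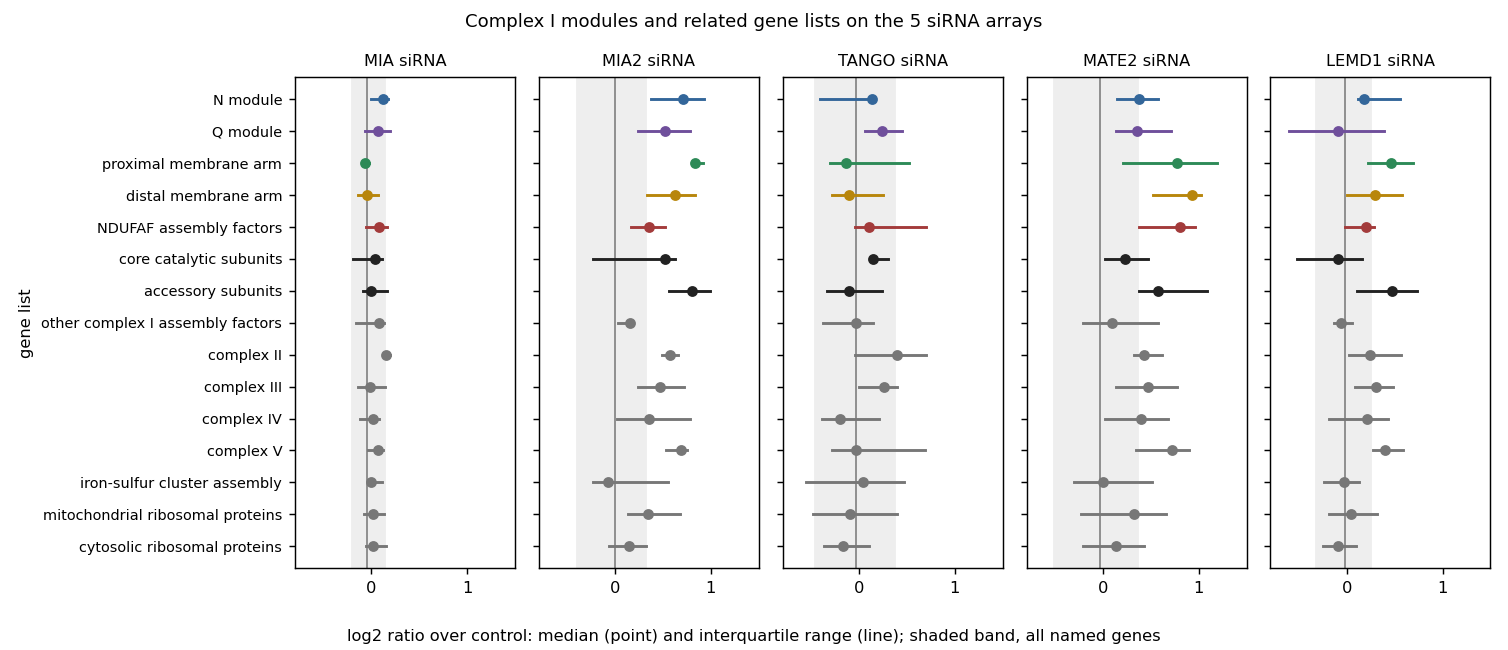
Median log2 ratio over control (points) and interquartile ranges (lines) of complex I modules, core and accessory subunits and related gene lists, in 1 panel for each siRNA array, with the median and the interquartile range of all named genes as a grey line and band. On MIA2 and MATE2 the complex I modules and complexes II to V lie right of the grey line, and iron-sulfur cluster assembly, at -0.08 and 0.00, lies at it.

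Ribosomal proteins were set beside complex I as further lists, also chosen after the values were seen. Their transcript lengths and signals were not matched to those of complex I. Mitochondrial ribosomal proteins, which make the mitochondrially encoded subunits, had medians of 0.34 on MIA2, 0.32 on MATE2, 0.04 on LEMD1, -0.10 on TANGO and 0.02 on MIA over 71 genes. Cytosolic ribosomal proteins had medians of 0.15 on MIA2 over 58 genes and 0.14 on MATE2 over 59. Their medians were -0.09 on LEMD1 and -0.17 on TANGO over 59 genes, and 0.02 on MIA over 58. The complex I medians on MIA2 and MATE2 were 0.67 and 0.53. Regulators of mitochondrial gene expression had medians between -0.10 and 0.14 on the 5 arrays. Among them POLRMT, the mitochondrial RNA polymerase, was high on TANGO (1.51) and MATE2 (1.39), GABPB1, a subunit of GABP, was high on MATE2 (1.20), and ESRRA, an orphan nuclear receptor of energy metabolism, was low on MATE2 (-1.54). Supercomplex and antioxidant partners had medians of 0.495 on MIA2, 0.036 on MATE2, 0.11 on LEMD1, -0.382 on TANGO and -0.085 on MIA over 14 genes. Of these, SOD2, the mitochondrial superoxide dismutase, was low on TANGO (-1.36) and LEMD1 (-1.35). COQ8A, of ubiquinone synthesis, was low on TANGO (-1.17) and MATE2 (-1.15). COQ4, of the same pathway, was low on MATE2 (-1.48), and HIGD2A was high on MIA2 (1.02).

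How far probes of 1 gene agreed gives a scale for these ratios that is no replicate error. Between the brightest good probe and the next, the log2 ratio differed by a median of 0.38 on MIA2 over 1893 genes, 0.48 on MATE2 over 1921, 0.44 on TANGO over 1930, 0.30 on LEMD1 over 2064 and 0.23 on MIA over 1983. For the complex I genes with another good probe, NDUFA10, NDUFA11, NDUFB4, NDUFV1 and NDUFV2, the differences were at most 0.84, the value of NDUFA11 on MIA2. On MATE2 the pairs read 0.90 and 0.87 for NDUFB4, and 0.31 and 0.15 for NDUFV1.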

How the data were processed

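RNA from HSC3 cells was labelled and hybridized to CodeLink arrays, 1 per condition. The deposited scanner files hold spot intensity and name CodeLink Expression Analysis 5.0.0.31312 in their headers. The intensity used is the spot mean less the local background median, which held within 0.0001 on every unmasked spot. The authors also deposited a normalized intensity table, made by quantile normalization. It is linear and not centred, with the same median, 51.12, on each array, and gave complex I log2 ratios within 0.137 of those from the scanner values.

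Of 53423 gene probes, 320 masked on any array were left out. Intensities of the other 53103 were quantile normalized over the 6 arrays, set to a floor of 1 and taken to log2. Gene names were read from the platform table and brought up to RefSeq's symbols (23311 probes) taken from the sequence accession (649). Probes given to several genes (898) and unnamed probes (28245) entered no gene. The probe with the highest mean log2 signal stood for a gene. The flags near background and irregular shape were left out of counts.

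Groups came from the labels. No test was run, because each comparison sets 1 array against 1 array. Members and lists were chosen with earlier results of these data known, and the core, accessory and ribosomal lists after the values were seen. The ribosomal lists are given by their medians alone, although some of their genes were past 2-fold. Genes named were each member, and each gene of the other lists past 2-fold, up to 6 per list and comparison. Of the genes this rule names, 1 member and 2 listed genes are not reported here by name, although they entered the counts and medians. The alternatives were other normalizations, background corrections, flag filters, probe choices, comparators and member lists. Tools were Python 3.11.15, numpy 2.4.6, pandas 2.3.3, matplotlib 3.10.9, R 4.3.3 and limma 3.58.1.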

Additional observations from a re-analysis of the deposited data

How the results depend on the processing

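The medians and counts were recomputed under 15 alternatives, plus 2 added after the data were seen, COXFA4 counted as a member and ambiguous probes named by accession. Of 246 recomputed values, 223 stayed within 0.2 (log2) of the median or within 1.5 times the count, 23 moved further and 0 changed a median of at least 0.2 in sign. Medians ranged from 0.42 to 0.78 on MIA2, 0.47 to 0.67 on MATE2, 0.02 to 0.28 on LEMD1, -0.16 to 0.07 on TANGO and -0.29 to 0.06 on MIA. The next values were set against the median of all 5 other arrays, siRNA arrays included. The complex I median was then 0.42 on MIA2, 0.02 on LEMD1, -0.16 on TANGO and -0.29 on MIA. There 1 gene was lower on MIA, beside 0.642% of all genes. On TANGO 4 were lower and 0 higher, beside 5.85% and 5.21%, and on LEMD1 0 were higher, beside 1.65%. With the MIA siRNA array as comparator, 1 gene was lower on TANGO, beside 7.56% of all genes, and 1 higher on LEMD1, beside 2.11%. Scaling each array to its median gave 12 genes higher on MIA2, where 4.35% of all genes were then lower and 4.63% higher, and on TANGO 10.9% lower and 4.17% higher. Normexp background correction, no background correction and 50 added before log2 each left 1 lower and 1 higher gene on TANGO and 0 higher on LEMD1. In the same order, 5.38%, 4.96% and 5.51% of all genes were lower on TANGO and 3.23%, 3.06% and 3.32% higher. On LEMD1, 1.14%, 1.04% and 1.16% of all genes were higher. Bright probes alone left 1 higher gene on each of TANGO and LEMD1, beside 5.65% and 2.33% of the genes with bright probes. Subunits alone left 1 higher on TANGO, beside 5.57% of all genes. The cause of these shifts was not tested. Of 24 single calls, 11 stayed past 2-fold under every alternative that gave a value: NDUFA2, NDUFB6, NDUFC1 and NDUFAF8 on MIA2, NDUFA11, NDUFA12, NDUFB9, NDUFS8 and NDUFAF4 on MATE2, NDUFV3 on TANGO and NDUFS7 on LEMD1. All 24 kept their direction. Without the TANGO and MATE2 arrays in the normalization, all 10 calls on MIA2 and LEMD1 stayed past 2-fold. No paired analysis was possible because each condition has 1 array and shares a single replicate number. Signal over background limits NDUFA10, whose probe used for the ratios was near background on 3 arrays, and NDUFAF6.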

Other observations

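The squamous markers differed among themselves in the arrays where complex I transcripts were high. KRT5, a basal keratin, had signals of 1867 on MIA, 12770 on MIA2, 4837 on TANGO, 3283 on MATE2 and 14790 on LEMD1, against 1558 on control. KRT14, its partner in filaments, read 6483 on MIA, 16780 on MIA2, 309 on TANGO, 2812 on MATE2 and 14440 on LEMD1, against 5354 on control. KRT5 and KRT14 were thus high on MIA2 and LEMD1, and KRT14 was under the control on TANGO and MATE2. KRT17, another keratin, went another way. It read 666 on MATE2, 122 on TANGO, 85.3 on MIA2, 81.6 on LEMD1 and 68.5 on MIA, against 83.2 on control. TP63 was highest on TANGO, at 1586 against 856 on control, and SFN ranged from 1561 on control to 2565 on LEMD1. EPCAM, an epithelial adhesion protein, stayed between 2684 and 3882 on all 6 arrays. LEMD1 itself read 3192 on TANGO and 1011 on MATE2, against 278 on control.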
